A study of Mus musculus with 6 samples.

Results

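The 7 genes *Gata1*, *Klf1*, *Zfpm1*, *Epor*, *Car1*, *Car2* and *Hba-a1* were followed as markers of erythroid priming in mouse hematopoietic stem cells (HSCs). They were chosen by name, from what they do in red cell formation, with earlier results of these data known. Each of the 7 was found once among the 26216 gene names of the RNA-seq data. All 7 also belonged to the 13108 names in the upper 50% by mean level that were tested. On the scale of all names their mean levels ranked from the 70.0th to the 99.3rd percentile.

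Erythroid priming is the low-level transcription of red cell genes in stem and progenitor cells that have not yet committed to a lineage. The transcription factor GATA1 works with its cofactor FOG1, encoded by *Zfpm1*, and with KLF1 to switch on the genes of the red cell: the erythropoietin receptor, the enzymes of haem synthesis, membrane proteins and the globins. Carbonic anhydrases 1 and 2 are abundant cytosolic enzymes of red cells and are transcribed early in the lineage, whereas globin RNA normally accumulates late.

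The cells were LT/ST-HSCs, that is long-term and short-term HSCs, sorted as live Lin-Sca1+c-Kit+CD150+CD48- cells from the bone marrow of mixed chimeras in week 6 after transplantation. Lethally irradiated Ly5.1/Ly5.2 recipients had received *Ltbr*-/- donor cells, which lack the lymphotoxin beta receptor and carry the Ly5.2 form of CD45, together with congenic Ly5.1 donor cells, which have the receptor. There were 3 *Ltbr*-/- and 3 Ly5.1 samples, each labelled as a biological replicate, into which the cells of 6 chimeras had been pooled. The *Ltbr*-/- donors carried a homozygous deletion within *Ltbr* in every cell and not in HSCs alone, and both groups had passed through the same irradiated hosts. Donors were 10 to 13 weeks old for *Ltbr*-/- and 7 to 13 weeks old for Ly5.1, and the Ly5 form always went with the genotype, so that effects of *Ltbr* and of other differences between the donor strains cannot be told apart.

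Expression was given as a normalised signal per gene and sample. It was taken to be the power of 2 of a regularized log, from its values and the study's methods, since the files do not state the scale. The files hold no read counts, so the depth of each sample cannot be read from them, and the error of a value is known only from the 3 replicates of its group. *Ltbr* itself checked the labels: its signal was 24.2, 26.4 and 23.1 in *Ltbr*-/- and 564, 549 and 522 in Ly5.1 cells, a log2 fold change of -4.47 (SE 0.08, adjusted p = 2.15e-32, limma). Of all tested genes, 364 passed an adjusted p under 0.05 together with a fold of at least 1.5, 356 of them higher and 8 lower in *Ltbr*-/-. None of the samples stood apart in the median log2 signal of the tested genes, which was 8.46 to 8.47. The signal summed over all names did separate the groups, at 12974106 to 13281050 in *Ltbr*-/- and 11689052 to 11983000 in Ly5.1 samples. The cause of this was not tested. Of the 10 HSC markers, 0 passed both thresholds in limma (4 at an unadjusted p under 0.05), 1 (*Ly6a*, log2 fold change -0.39) passed the adjusted p alone on the lower side, and their median was -0.16 on the log2 scale. Here and below, the share of all tested genes at an unadjusted p under 0.05 was not computed for comparison. It is at least the 14.8% that passed the adjusted p, so such counts are given as a description only. As all samples were bulk, fewer cells of a type and less RNA per cell cannot be told apart.

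Only *Hba-a1* among the 7 genes passed both thresholds, with about 2-fold more signal in *Ltbr*-/- LT/ST-HSCs than in Ly5.1 cells. That is 1 of 7 genes, while 2.78% of all tested genes passed in either direction, 2.72% on the higher and 0.061% on the lower side. By the adjusted p alone 2 of 7 passed, *Hba-a1* on the higher and *Car2* on the lower side, against 14.8% of all tested genes, 10.6% higher and 4.18% lower. The 3 transcription regulators, the erythropoietin receptor and *Car1* did not pass. 5 genes had a log2 fold change above 0 and 2 below, with a median of 0.11 beside -0.011 for all tested genes. The *Ltbr*-/- and Ly5.1 samples did not overlap for 4 genes (*Gata1*, *Car1*, *Car2* and *Hba-a1*), and 30.4% of all tested genes were separated in the same way, 17.0% with *Ltbr*-/- above and 13.5% with *Ltbr*-/- below.

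**Figure D1:**
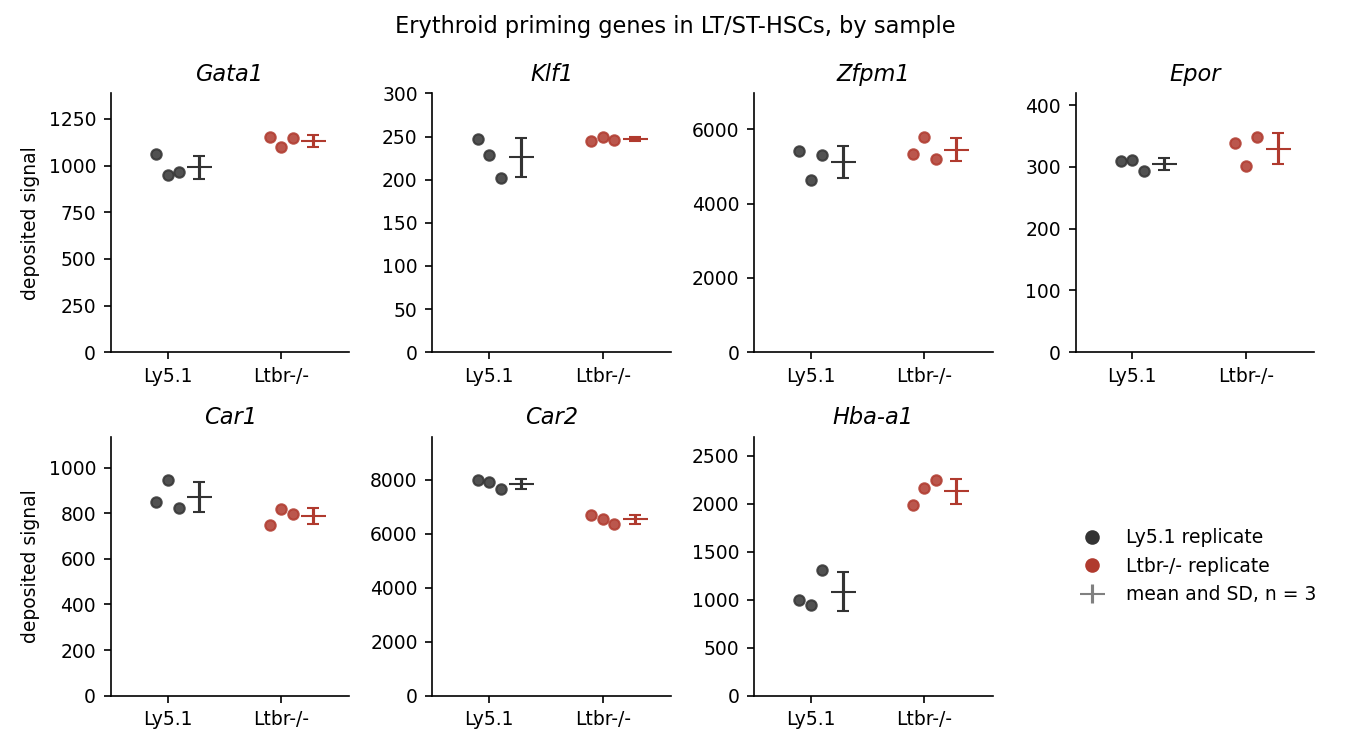
Deposited signal (vertical axes, linear, from 0) of the 7 erythroid priming genes in 3 Ly5.1 (black) and 3 *Ltbr*-/- (red) replicates, with mean and SD beside the points. The *Hba-a1* points of *Ltbr*-/- cells (1988 to 2244) all lie above those of Ly5.1 cells (946 to 1312), the *Car2* points all lie below, and the points of *Klf1*, *Zfpm1* and *Epor* overlap.

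RNA of all 7 genes was found in the sorted LT/ST-HSC samples of both groups, at very different levels. Which cells of these bulk samples held the RNA is not known. Signal per kilobase of transcript put *Car2* first in Ly5.1 cells, at 4386, followed by *Hba-a1* at 1550, *Zfpm1* at 1512, *Car1* at 730, *Gata1* at 521, *Epor* at 173 and *Klf1* at 148. Of these neighbours only *Hba-a1* and *Zfpm1* overlapped between samples, with 1353 to 1877 against 1368 to 1599 per kilobase. The order was the same in *Ltbr*-/- cells, where *Hba-a1*, at 3047 per kilobase, lay between *Car2* at 3652 and *Zfpm1* at 1608 and no neighbours overlapped. In the Ly5.1 cells *Car2* thus exceeded *Hba-a1* 2.83-fold per kilobase, and in *Ltbr*-/- cells the gap was smaller.

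The master regulator *Gata1* was slightly higher in all *Ltbr*-/- samples, but the difference did not pass the adjustment over all tested genes. Its signal was 1155, 1097 and 1150 in *Ltbr*-/- and 1061, 947 and 965 in Ly5.1 cells. The lowest *Ltbr*-/- value lay above the highest Ly5.1 value, and the means were 1134 ± 32.0 and 991 ± 61.4 (SD, n = 3). The log2 fold change was 0.20 (SE 0.09, 95% interval 0.02 to 0.37, adjusted p = 0.135), and the exact two-sided permutation test gave p = 0.1, the smallest that 3 samples against 3 allow. *Gata1* lies on the X chromosome (GRCm38, chrX:7959260-7976663).

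*Klf1*, the factor that activates the adult beta globin gene and many other late erythroid genes, was the most weakly expressed of the 7 (chr8:84901982-84905291). Its signal was 245, 250 and 246 in *Ltbr*-/- and 247, 229 and 202 in Ly5.1 cells. The groups overlapped through Ly5.1 replicate 1, and the log2 fold change of 0.13 (SE 0.09, 95% interval -0.06 to 0.32) had an adjusted p of 0.388.

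*Zfpm1*, which encodes the GATA1 cofactor FOG1 (chr8:122281856-122337862), had one of the highest signals. It was 5330, 5806 and 5215 in *Ltbr*-/- and 5421, 4638 and 5320 in Ly5.1 cells, and the samples were interleaved. The log2 fold change was 0.09 (SE 0.07, 95% interval -0.06 to 0.24, adjusted p = 0.472). For *Gata1*, *Klf1* and *Zfpm1* alike, the upper ends of the intervals lay under the log2 of a 1.5-fold change, 0.585.

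Of 16 further erythroid transcription factors and cofactors, none passed both thresholds in limma. An unadjusted p under 0.05 was found for 6, where the share of all tested genes was not computed but is at least 14.8%. A log2 fold change above 0 was found for 6, and the median of the list was -0.05. The change furthest from 0 was that of *Bcl11a*, the repressor of embryonic and fetal type globin genes, with a signal of 1090, 1104 and 1128 in *Ltbr*-/- and 1272, 1389 and 1465 in Ly5.1 cells. The groups did not overlap, and the log2 fold change of -0.31 (SE 0.09) passed the adjusted p (0.0108) but not the fold threshold. The same held on the lower side for *Myb*, a factor of progenitor proliferation (log2 fold change -0.26, adjusted p = 0.00558), and *Lmo2*, the bridging protein of the GATA and TAL1 complex (-0.24, 0.0216), and on the higher side for *Gata2*, which precedes GATA1 at many of its sites (0.22, 0.0402). These 3 were named after their values were seen.

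*Epor* encodes the receptor through which erythropoietin keeps red cell precursors alive, acting by JAK2 and STAT5 (chr9:21958897-21963576). Its signal was 339, 301 and 349 in *Ltbr*-/- and 310, 311 and 293 in Ly5.1 cells. The groups overlapped because *Ltbr*-/- replicate 2 fell among the Ly5.1 values. The means were 330 ± 25.4 and 305 ± 10.3 (SD, n = 3), with a log2 fold change of 0.11 (SE 0.09, 95% interval -0.08 to 0.30, adjusted p = 0.487).

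Downstream of the receptor, 1 of 12 tested signalling genes passed both thresholds. This was *Cish*, a feedback inhibitor that cytokine receptors induce through STAT5, with a signal of 860, 903 and 994 in *Ltbr*-/- and 606, 522 and 656 in Ly5.1 cells. All *Ltbr*-/- values lay above all Ly5.1 values, and the means of 919 ± 68.3 and 594 ± 67.6 (SD, n = 3) differed 1.55-fold (log2 fold change 0.63, SE 0.10, adjusted p = 3.34e-06). *Cish* was close to the fold threshold, and the log2 fold change was 0.58 without *Ltbr*-/- replicate 3 and 0.54 without Ly5.1 replicate 2, under the threshold in both cases. *Pim1*, a kinase gene that STAT5 also induces and that was named after its values were seen, passed the adjusted p alone, with 3018, 3019 and 3016 in *Ltbr*-/- against 2233, 1993 and 2309 in Ly5.1 cells (log2 fold change 0.47, adjusted p = 2.38e-05). For the transducers themselves the log2 fold changes were -0.10 for *Jak2* (adjusted p = 0.541), -0.04 for *Stat5a* (0.790) and -0.17 for *Stat5b* (0.200), and none of these passed. The median over the 12 genes was -0.05. *Cish* and *Pim1* answer to many cytokine receptors besides the one for erythropoietin.

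*Car1* and *Car2*, the carbonic anhydrase genes that lie near each other on chromosome 3, were both lower in *Ltbr*-/- cells, but only *Car2* passed the adjusted p. *Car1* (chr3:14766214-14808365) had a signal of 749, 819 and 796 in *Ltbr*-/- and 850, 945 and 821 in Ly5.1 cells. The groups nearly touched but did not overlap, 6.3% of its 76-base windows also occur in the gene *Gm5843*, and the log2 fold change of -0.14 (SE 0.09, 95% interval -0.33 to 0.04) had an adjusted p of 0.313.

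*Car2* (chr3:14886269-14900770) had a signal of 6686, 6529 and 6374 in *Ltbr*-/- and 7982, 7894 and 7649 in Ly5.1 cells. The replicates were tight and the groups well apart, with means of 6530 ± 156 and 7842 ± 173 (SD, n = 3). The ratio was 0.833, and the log2 fold change of -0.26 (SE 0.07, 95% interval -0.40 to -0.13, adjusted p = 0.00447) did not reach a 1.5-fold change. Under quantile normalization it was -0.52 (adjusted p = 1.58e-07), still short of that fold. Of the other carbonic anhydrase genes 8 of 14 were tested and none passed in limma (1 at an unadjusted p under 0.05), and the median of the 8 log2 fold changes was 0.05. The change furthest from 0 among them was that of the mitochondrial enzyme *Car5a*, at 0.11 (adjusted p = 0.170).

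*Hba-a1* encodes an alpha chain of adult hemoglobin (chr11:32283672-32284486) and was the one gene of the 7 that passed both thresholds, on the higher side. Its signal was 1988, 2157 and 2244 in *Ltbr*-/- and 992, 946 and 1312 in Ly5.1 cells. Every *Ltbr*-/- sample exceeded every Ly5.1 sample, and the largest spread was among the Ly5.1 samples, where replicate 3 was the highest. The means were 2129 ± 130 and 1083 ± 199 (SD, n = 3), a fold of 1.98 (95% interval 1.73 to 2.27), with a log2 fold change of 0.99 (SE 0.10, adjusted p = 2.81e-10). The exact permutation test was at its smallest possible p of 0.1. With the variance of the gene taken alone, without the moderation across genes, the log2 fold change was the same and the adjusted p was 0.0601.

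The neighbouring paralog *Hba-a2* moved with it. It had 1054, 1088 and 1076 in *Ltbr*-/- and 553, 567 and 659 in Ly5.1 cells, without overlap, and a log2 fold change of 0.86 (SE 0.09, adjusted p = 1.88e-09). The transcripts of both genes are so alike that 62.0% of the 76-base windows of *Hba-a1* also occur in *Hba-a2*, and 80.8% of those of *Hba-a2* in *Hba-a1*, so that reads could not be assigned to one of them with certainty. The summed signal avoids this only if each shared read was counted once, which is not known. It was 3042, 3244 and 3319 in *Ltbr*-/- and 1545, 1513 and 1971 in Ly5.1 cells, a 1.92-fold difference (log2 fold change 0.94, SE 0.09, adjusted p = 1.02e-10). *Hba-a1* took 66.5% ± 1.13 of this sum in *Ltbr*-/- and 64.4% ± 2.03 in Ly5.1 cells (SD, n = 3), and these shares overlapped (exact permutation p = 0.3).

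The beta globin genes, whose product pairs with the alpha chain, did not pass. *Hbb-b1* had 375, 407 and 398 in *Ltbr*-/- and 383, 370 and 390 in Ly5.1 cells, interleaved, with a log2 fold change of 0.04 (95% interval -0.14 to 0.23, adjusted p = 0.808). *Hbb-bs*, listed under its older name *Beta-s*, had 375, 374 and 392 against 319, 342 and 352, without overlap, and a log2 fold change of 0.17 (95% interval -0.01 to 0.36, adjusted p = 0.227). The transcript of *Hbb-bs* shares 64.2% of its windows with that of *Hbb-bt*, so that the beta globin values carry the same doubt about read assignment. The summed signal of *Hbb-b1* and *Beta-s* was 750, 781 and 789 in *Ltbr*-/- and 702, 712 and 742 in Ly5.1 cells. These sums did not overlap, with a log2 fold change of 0.11. The ratio of summed alpha to summed beta globin signal was 4.06, 4.15 and 4.21 in *Ltbr*-/- and 2.20, 2.12 and 2.65 in Ly5.1 cells, with means of 4.14 ± 0.0756 and 2.33 ± 0.287 (SD, n = 3, exact permutation p = 0.1). The ratio was thus higher in each *Ltbr*-/- sample than in any Ly5.1 sample. The embryonic globins *Hba-x*, *Hbb-y* and *Hbb-bh1* and the theta globin *Hbq1b* lay between 1.66 and 4.38 and were below the filter on low values.

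**Figure D2:**
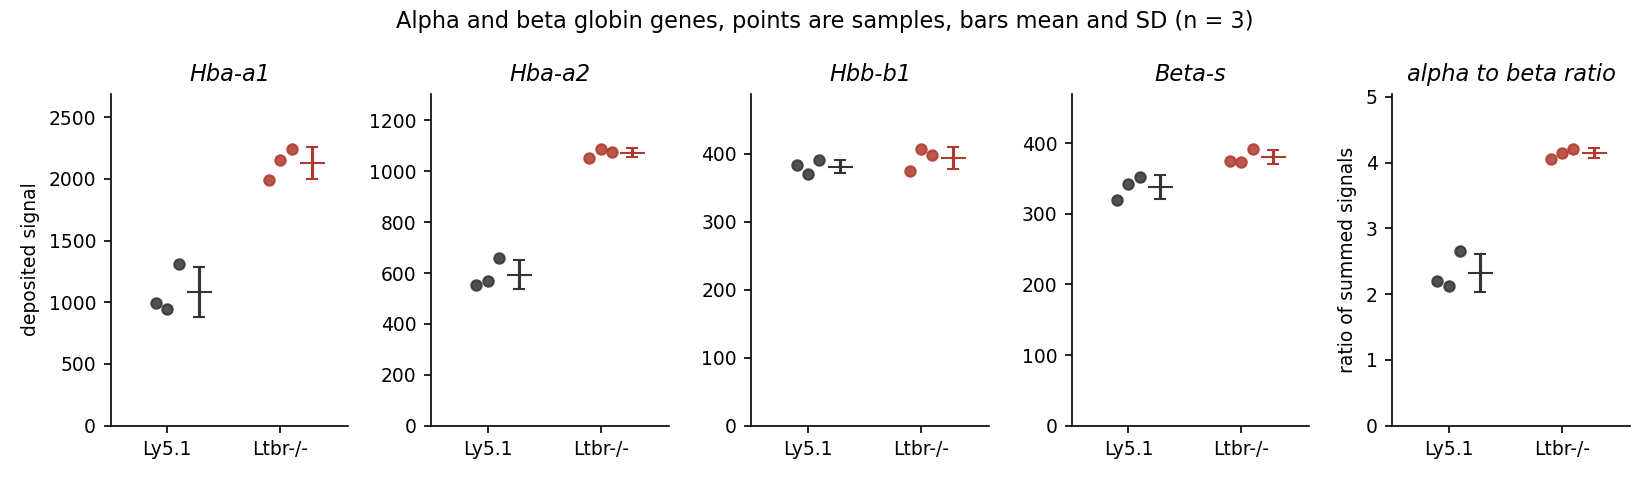
Deposited signal (linear, from 0) of 2 alpha globin genes (*Hba-a1*, *Hba-a2*) and 2 beta globin genes (*Hbb-b1*, *Beta-s*), and the ratio of summed alpha to summed beta signal, in 3 Ly5.1 (black) and 3 *Ltbr*-/- (red) replicates with mean and SD. The alpha genes separate the groups by about 2-fold and the ratio lies at 4.06 to 4.21 in *Ltbr*-/- against 2.12 to 2.65 in Ly5.1 cells, while the *Hbb-b1* points overlap.

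The promoters of the alpha genes, of the beta gene that did not pass and of *Cish* are shown because these genes carry the contrasts above. They were taken from RefSeq on GRCm38.p6 and run 5′ to 3′ from 250 bases before to 20 bases after the start of the gene, with *Hba-a1* at chr11:32283422-32283691 (+), *Hba-a2* at chr11:32296242-32296511 (+), *Hbb-bs* at chr7:103827909-103828178 (-) and *Cish* at chr9:107296409-107296678 (+). Capitals mark GATA motifs (AGATAA or its form AGATAG, and likewise TGATAA or its form TGATAG, on either strand) in the alpha and beta genes, the CACCC box bound by KLF1 (CCNCNCCC on either strand) in *Hbb-bs*, and STAT5 motifs (TTCNNNGAA) in *Cish*.
*Hba-a1*: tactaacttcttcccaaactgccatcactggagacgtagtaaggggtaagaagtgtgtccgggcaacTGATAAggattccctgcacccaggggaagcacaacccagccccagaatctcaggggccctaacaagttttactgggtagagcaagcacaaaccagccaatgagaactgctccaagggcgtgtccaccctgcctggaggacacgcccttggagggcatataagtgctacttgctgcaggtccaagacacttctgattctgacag
*Hba-a2*: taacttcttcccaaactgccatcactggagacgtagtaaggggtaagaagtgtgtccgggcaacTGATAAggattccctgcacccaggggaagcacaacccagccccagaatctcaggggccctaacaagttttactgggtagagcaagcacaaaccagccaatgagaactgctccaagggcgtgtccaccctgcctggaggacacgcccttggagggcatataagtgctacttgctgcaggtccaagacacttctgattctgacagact
*Hbb-bs*: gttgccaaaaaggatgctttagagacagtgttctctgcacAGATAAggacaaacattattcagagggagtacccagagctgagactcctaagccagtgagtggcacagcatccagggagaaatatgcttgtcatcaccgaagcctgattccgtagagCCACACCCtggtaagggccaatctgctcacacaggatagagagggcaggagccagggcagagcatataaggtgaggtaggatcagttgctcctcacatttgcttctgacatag
*Cish*: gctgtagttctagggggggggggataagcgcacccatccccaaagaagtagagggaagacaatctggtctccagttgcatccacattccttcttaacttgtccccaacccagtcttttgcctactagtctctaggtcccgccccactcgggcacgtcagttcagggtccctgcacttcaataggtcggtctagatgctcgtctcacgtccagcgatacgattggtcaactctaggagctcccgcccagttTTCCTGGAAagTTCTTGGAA

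The *Hba-a1* and *Hba-a2* promoters were 97.8% identical (267 of 273 aligned positions) and shared a GATA motif, TGATAA, at 183 and 186 bases before the start. *Hbb-bs*, 49.8% identical to *Hba-a1*, had AGATAA at 210 and a CACCC box at 93 bases before the start. A GATA motif occurred in the 2 globin genes that passed both thresholds and in *Hbb-bs*, which did not pass. It occurred in 29.8% of all 32851 promoter windows of 300 bases. *Klf1* and *Epor* also had 1 GATA motif each, and *Gata1* and *Zfpm1* had none. CACCC boxes were found in *Gata1* (3), *Zfpm1* (4), *Epor* (4, in overlapping pairs) and *Cish* (4), as in 49.5% of all promoters. Those of *Cish* overlap one another in a run of G and are left in lower case above. The *Gata1* window (chrX:7967861-7968160, minus strand) lies inside the span printed for the gene, so the outer end of that span was not scanned. The same holds for the *Zfpm1* window (chr8:122281891-122282190, plus strand). *Cish* held a pair of STAT5 motifs, TTCCTGGAA and TTCTTGGAA, that begin 1 and 12 bases into the gene, and 8.3% of all promoters had any. These are matches of letters only, and binding was not measured.

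Outside the 7 genes, 100 names in 8 lists covered the rest of the erythroid programme. Of these 98 were in the data and 86 were tested, and 3 passed both thresholds, all on the higher side: *Cish*, *Hba-a2* and *Blvrb*. Of all tested genes 2.78% passed, 2.72% on the higher side, a share near that of the lists. By the adjusted p alone 8 were higher and 4 lower, where 10.6% and 4.18% of all tested genes were. 39 of the 86 had a log2 fold change above 0 and the median was -0.02.

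*Blvrb* encodes biliverdin reductase B, an enzyme of red cells and their progenitors that takes up products of haem breakdown. Its signal was 1513, 1442 and 1585 in *Ltbr*-/- and 909, 961 and 916 in Ly5.1 cells. The groups were wide apart, with a fold of 1.63 (log2 fold change 0.70, SE 0.09, adjusted p = 4.23e-08). It was the only one of 9 tested early erythroid progenitor genes to pass both thresholds, and the 9 had a median of 0.01 on the log2 scale. *Ces2g*, a carboxylesterase gene (log2 fold change 0.56, adjusted p = 4.84e-06), and *Apoe*, a lipid carrier gene (-0.36, 0.00181), passed the adjusted p alone in opposite directions and were named after their values were seen.

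In the lists for haem, iron and the red cell membrane no gene passed both thresholds. Among 13 haem synthesis genes, whose log2 fold changes had a median of 0.03, 3 had an unadjusted p under 0.05. *Alad*, which makes porphobilinogen early in the pathway, passed the adjusted p alone, with 1392, 1626 and 1639 in *Ltbr*-/- and 1176, 1148 and 1250 in Ly5.1 cells (log2 fold change 0.38, adjusted p = 0.00185). None of the 7 iron uptake genes passed in limma (3 at an unadjusted p under 0.05), with a median of -0.14, and the one furthest from 0 was *Aco1*, the iron-sensing aconitase (-0.22, adjusted p = 0.151). Of 18 membrane and skeleton genes, with a median of -0.01 and 3 at an unadjusted p under 0.05, only *Icam4*, a red cell adhesion molecule, passed the adjusted p alone (log2 fold change 0.28, adjusted p = 0.0307).

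**Figure D3:**
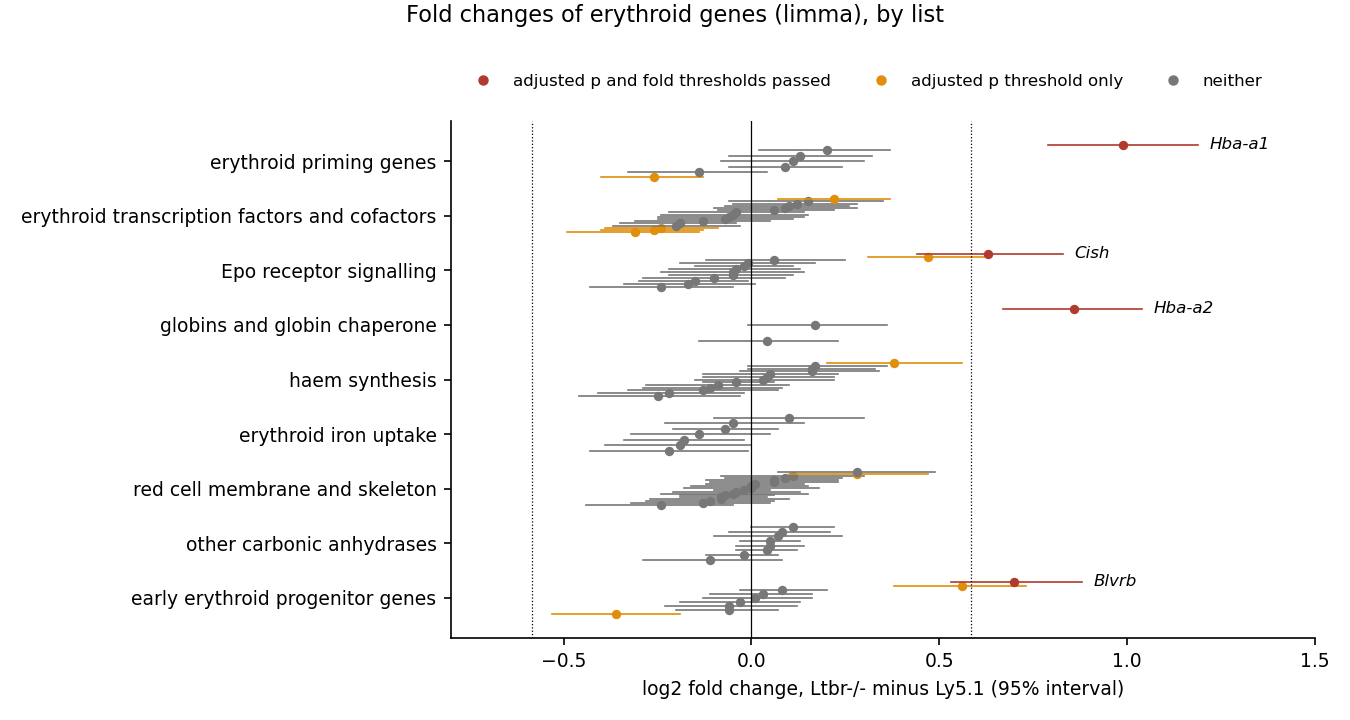
Log2 fold change (*Ltbr*-/- minus Ly5.1, horizontal axis, with 95% interval from limma) of each tested gene in the erythroid lists (rows), with dotted lines at a 1.5-fold change. The 4 red points, *Hba-a1*, *Hba-a2*, *Blvrb* and *Cish*, passed both thresholds, and all 4 lie to the right, while all other points lie between the dotted lines.

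Markers that define mature red cells were mostly at low signals in both groups. Of the 9 tested, 1 (*Hba-a2*) passed, and the median over the list was 0.04 on the log2 scale. Mean signals in *Ltbr*-/- and Ly5.1 cells were 27.0 and 27.6 for *Alas2*, the erythroid enzyme of the first step of haem synthesis, and 67.0 and 62.7 for *Slc4a1*, the anion exchanger. The summed signal of the list ranged from 2176 to 2229 in *Ltbr*-/- and 1607 to 1756 in Ly5.1 cells. Without *Hba-a2*, and added up from rounded signals, it ranged from 1122 to 1155 and 1054 to 1097. Some genes of other lineages also moved, in both directions. The summed mast cell and basophil markers were at 7819 to 8378 against 4351 to 4982, with 1 of 8 passing both thresholds (*Cma1*, log2 fold change 1.32, mean signal 5470 against 2195). By the adjusted p alone *Cpa3* was higher (log2 fold change 0.56) and *Prss34* lower (-0.41), 4 of the 8 lay above 0, and the median of the list was 0.01. The summed megakaryocyte markers were at 14612 to 15357 against 12429 to 13818, with none of 8 passing both thresholds (3 at an unadjusted p under 0.05). By the adjusted p alone *Itga2b* was higher (mean signal 11640 against 9380) and *Pf4* lower (324 against 409), 3 of the 8 lay above 0, and the median of that list was -0.04. The neutrophil and monocyte markers were at 44477 to 44910 against 57975 to 62825, with 9 of 10 lower by the adjusted p alone, and the B and T cell markers at 646 to 679 against 485 to 544, with 1 of 3 tested passing (*Cd79a*, log2 fold change 0.62). Their part in the globin difference was not tested.

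The alpha globin rise went along with a shift that short, strongly expressed transcripts showed as a class. Among the 3216 genes of known transcript length in the upper 25% of tested genes by mean, to which *Hba-a1* with 699 bases belonged, the 113 with transcripts of up to 700 bases had a median of 0.74 on the log2 scale, and 70.8% of them passed both thresholds on the higher side, against 8.08% of all 3216. Of the 113 genes, 13 including *Hba-a1* had a log2 fold change at least as large as that of *Hba-a1*, and 34 one at least as large as that of *Hba-a2*. Without the 22 ribosomal protein genes among them, the median was 0.69 over 91 genes. In the next 25% by mean, which held *Hba-a2* (554 bases) and *Hbb-bs* (628 bases), the 70 genes of that length had a median of 0.31, and 8.57% passed on the higher side, against 1.56% of all genes in that range. After a loess correction of the log2 fold changes for transcript length and GC content, chosen after the data were seen, *Hba-a1* had 0.88 (adjusted p = 2.96e-09) and *Hba-a2* 0.74. That correction had no term for the mean level, and transcripts of up to 700 bases had a median of only 0.1 over all tested genes. It could therefore not remove a shift confined to strongly expressed short transcripts, and these values do not separate the alpha globin genes from that shift. Centring each sample on the ribosomal protein genes instead moved the median of all tested genes to -0.88 and left *Hba-a1* at 0.12 (adjusted p = 0.28) and *Hba-a2* at -0.01. Neither passed on that scale, although *Hba-a2* was still 0.87 above the shifted median.

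**Figure D4:**
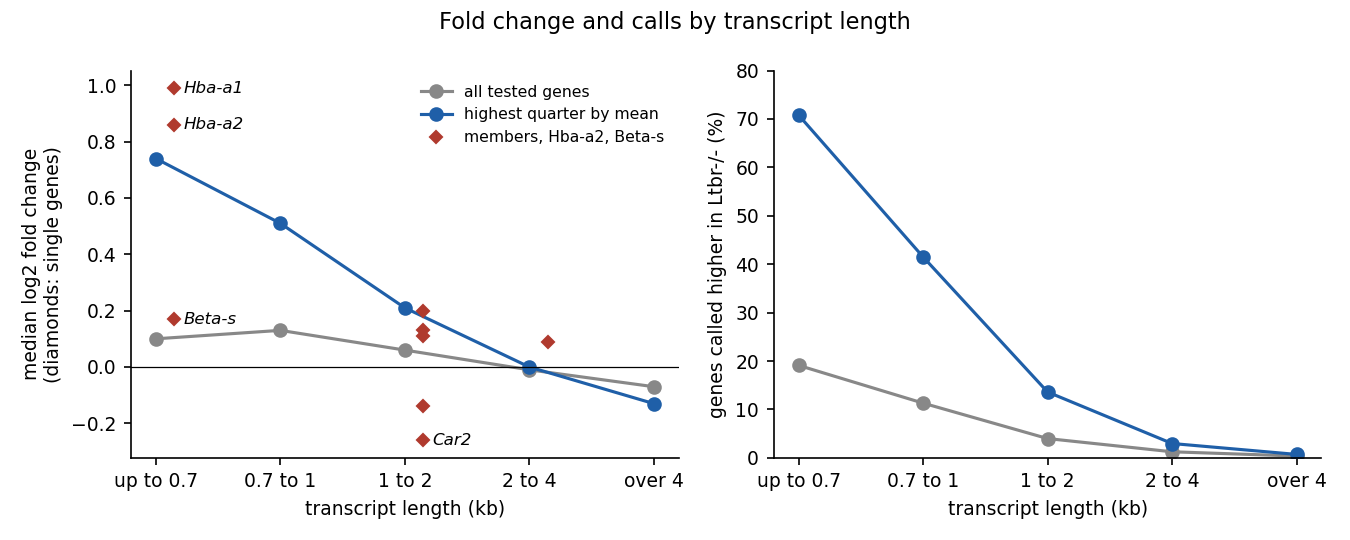
Median log2 fold change (left) and percent of genes passing both thresholds on the higher side (right) against transcript length in kilobases, for all tested genes (grey) and the upper 25% by mean (blue), with the 7 genes, *Hba-a2* and *Beta-s* as red diamonds in their length class. The blue median runs from 0.74 at up to 0.7 kilobases to -0.13 above 4 kilobases, and both *Hba-a1* and *Hba-a2* lie above it in the shortest class. *Hba-a2* belongs to the next 25% by mean, which is not drawn and where the shortest class had a median of 0.31.

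The genes whose log2 signals followed each of the 7 most closely over the 6 samples are given as a description, since picking the closest of 13108 genes over 6 samples gives high correlations for any pattern. For *Hba-a1* they were the ribosomal protein pseudogene *Rps6-ps4* and the ribosomal protein gene *Rpl3* (Pearson r = 0.999 for both) and *Bola2* (0.998), whose log2 fold changes were 0.61, 0.43 and 0.62. For *Car2* they were *Lgals3bp* (r = 0.995), *Hipk1* (0.994) and *Sp110* (0.993), and for *Car1* *Acox3* (0.992), *Cse1l* (0.988) and *D14Abb1e* (0.981), all with log2 fold changes below 0. For *Gata1* they were *Afg3l1* (0.995), *Fam120aos* (0.99) and *Hsd17b7* (0.988). *Klf1* was followed by *Megf9* (0.985), *Ide* (0.985) and *Mterfd3* (0.982), *Zfpm1* by *Slc24a5* (0.983), *Adsl* (0.98) and *Fbxw5* (0.98), and *Epor* by *Serpinb10* (0.987), *Nxt1* (0.984) and *Mapk11* (0.984). No gene of the 7 appeared among the closest genes of another.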

How the data were processed

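RNA-seq libraries were made from 3 *Ltbr*-/- and 3 Ly5.1 LT/ST-HSC samples with a stranded mRNA kit and sequenced as single reads of 76 bases. Assembly by the authors used SeqMan NGen and quantification used ArrayStar, and the submitters' processing notes name the builds GRCm38 and mm10. The annotation is not given in the sources used here. The values that the authors deposited are a positive signal per gene, taken from its values and the study's methods to be 2 to the power of a regularized log, though no file states the scale. On such a scale size factors and shrinkage are included, and changes of weakly expressed genes are understated. Counts were not used here, the depth per sample cannot be read from the files, and no counting interval was computed.

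Of 26595 values per sample, 379 were further entries of a repeated name, and only the highest entry by mean entered the fit. Of the 26216 names 9034 had one value in all samples. The log2 of the signal was taken without a pseudocount and fitted for the upper 50% of names by mean in limma 3.58.1 (R 4.3.3; lmFit, then eBayes with its trend option), and p-values were adjusted by Benjamini-Hochberg over all 13108 tested names. A gene passed if its adjusted p was under 0.05 and its fold no less than 1.5. Adjusted p-values are from this fit unless another setting or the summed alpha globin signal is named. Those were adjusted within their own fit. For single values a two-sided exact permutation test was used. P-values measure the spread between these pooled replicates. The model was checked on simulated data. Transcript lengths and shared windows of 76 bases came from GENCODE M21, and positions and promoters from RefSeq (GRCm38.p6), whose promoter table matched 5 of the 7 genes through their symbols and had no entry for *Car1* and *Car2*.

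The 7 genes, the lists and the tests were chosen with earlier results of these data known. Genes named were the 7, *Hba-a2*, every gene of the lists that passed both thresholds, the tested gene of each list with the largest absolute log2 fold change, and for each of the 7 the 3 genes with the highest correlation, and any other was named after its values were seen. *Beta-s* was added to the globin list, and older spellings of 4 names were matched, after the names in the files were seen. *Hbb-b2* and *Ahsp* were not analysed here. Other settings tried were a block for the replicate number, different filters, scalings, pseudocounts and variance models, other thresholds, summed repeated names, the sum of both alpha globin genes and leaving out each sample in turn. A loess correction for length and GC content (span 0.75) and a fit without ribosomal protein genes were added after the data were seen.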

Additional observations from a re-analysis of the deposited data

How the results depend on the processing

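Of the 7 genes 1 passed, *Hba-a1*, in the main analysis, in every analysis that left out 1 sample, under quantile normalization and under every other filter. The count was 0 for a fold of at least 2, 0 without variance moderation (*Hba-a1* adjusted p = 0.0601; *Cish*, 0.0775, was lost as well, which left 2 genes of the wider lists), 2 without a fold threshold (*Hba-a1* and *Car2*) and 6, all but *Hba-a1* and all lower, under centring by ribosomal protein genes, which moved the median of all tested genes to -0.88. The 3 passing genes of the wider lists became 12 without a fold threshold, 0 for a fold of at least 2 and 79 under ribosomal protein centring, and ranged from 2 to 4 when 1 sample was left out: *Cish* was lost without *Ltbr*-/- replicate 3 or Ly5.1 replicate 2, and *Ces2g* was added without Ly5.1 replicate 1. Ribosomal protein centring also turned the log2 fold changes of *Gata1* (-0.67), *Klf1* (-0.73), *Zfpm1* (-0.77), *Epor* (-0.75), *Hba-a2* (-0.01), *Cish* (-0.23) and *Blvrb* (-0.16), since it lowers every gene by about the same amount, and *Gata1*, *Klf1*, *Zfpm1* and *Epor* were 0.21, 0.14, 0.10 and 0.12 above the shifted median. Quantile normalization turned *Zfpm1* (-0.07); the cause was not tested. With 1 sample left out, *Hba-a1* ranged from 0.90 to 1.13, *Ltbr* from -4.53 to -4.43, *Klf1* from 0.05 to 0.20, *Zfpm1* from 0.02 to 0.13, *Epor* from 0.07 to 0.17 and *Car1* from -0.19 to -0.08. Over all tested genes, 356 higher and 8 lower calls became 261 and 28 under quantile normalization and 0 and 11955 under ribosomal protein centring. Same-numbered samples did not deviate together (r = 0.031, -0.005 and 0.09), so the numbers were not taken as pairs; with the replicate number as a block, 364 genes passed as without it, and the count for the 7 genes was again 1. Not every sample correlated best with its own number. Without read counts, the depth below which a change could not be detected is unknown.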
